A study of Macaca mulatta with 30 samples.

Results

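Binge and low drinkers were compared within a single cohort, so that cohort did not differ between the groups. The comparison holds 8 of the 30 libraries of the series: the 4 animals of cohort 4 labelled as binge drinkers (BD) and the 4 labelled as low drinkers (LD), with 1 library per animal. A ninth animal of the cohort, a heavy drinker (HD), stayed outside the test and is given as a single value. All were male rhesus macaques whose cortical area 32 was dissected after they had self-administered 4% (w/v) ethanol. Access was open for 22 h a day and 7 days a week over more than 12 months, after an induction of about 90 days. BD animals took at least 2 g/kg on at least 55% of days and reached a blood ethanol of 80 mg/dl or more at least once a year. The HD animal took at least 3 g/kg on at least 20% of days, and LD animals met no heavier definition. The cohort had a mean age of 8.24 years at induction and 9.98 years at the end. Every animal drank ethanol, so no ethanol-naive control enters, and the categories rest on what each animal chose to drink.

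Area 32 lies in the medial prefrontal cortex in front of the corpus callosum and takes part in the control of emotion, reward and habit. Binge drinking is intake that drives blood ethanol past the level of intoxication. Ethanol acts at GABA-A and NMDA receptors and on potassium channels, and chronic intake has been linked to stress peptides, myelin, immune signalling and chromatin. In dissected bulk tissue fewer cells of a type and less RNA per cell cannot be told apart.

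No gene passed the test of BD against LD. Of 15521 genes, 12693 had at least 10 normalized reads in at least 4 of the 8 libraries and were tested on log2(normalized reads + 1). Limma called 0 (0%) at an adjusted p under 0.05, its smallest adjusted p being 0.9998, and edgeR and DESeq2 also called 0. At an unadjusted p under 0.05 limma listed 229 genes (1.8%), 114 higher in BD (0.898%) and 115 lower (0.906%). EdgeR listed 233 and DESeq2 201. The 4 BD values all lay above or all below the 4 LD values in 200 genes (1.58%), 106 above (0.835%) and 94 below (0.741%). Differences below are BD minus LD on that log2 scale, ± the standard error of limma, with n = 4 animals in each group.

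The median standard error was 0.148 and the median size of a difference 0.082. The 95% interval of the difference lay inside a 1.5-fold change in either direction for 9180 genes (72.3%), inside 2-fold for 11580 (91.2%) and inside 4-fold for 12624 (99.5%). Only 38 genes had an estimate beyond 2-fold, 22 higher and 16 lower, and 35 of these had a mean under 50 normalized reads.

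RNA was depleted of ribosomal RNA, made into strand-specific libraries and sequenced 4 to a lane. Depth differed within both groups. BD libraries held 5.17, 4.94, 5.04 and 13.99 M (mega) reads in genes in replicates 1 to 4, and LD libraries 4.39, 7.34, 11.59 and 9.92 M. BD replicate 4 stood far above the other BD libraries, and LD replicate 1 was the shallowest of all. The means were 7.28 ± 4.47 (SD) and 8.31 ± 3.14 M, a difference of −1.03 M. In an exact permutation test, two-sided, 58 of the 70 arrangements of the labels differed by at least as much, and the smallest p this design allows is 0.0286. Principal component analysis of the 8 libraries put on its first axis (28.8% of the variance) BD replicates 1 to 3 and LD replicate 1, all under 6 M reads, at −29.1 to −7.7. BD replicate 4 and LD replicates 2 to 4 lay at 10.2 to 25.5. With a term for these depth sets, added after seeing the data, limma called 0 of 12693 genes. It listed 1117 at an unadjusted p under 0.05, 594 higher and 523 lower, against 229 (1.8%) without the term. The sets divide the BD and LD libraries unequally, so depth set and drinking category are partly confounded.

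**Figure D1:**
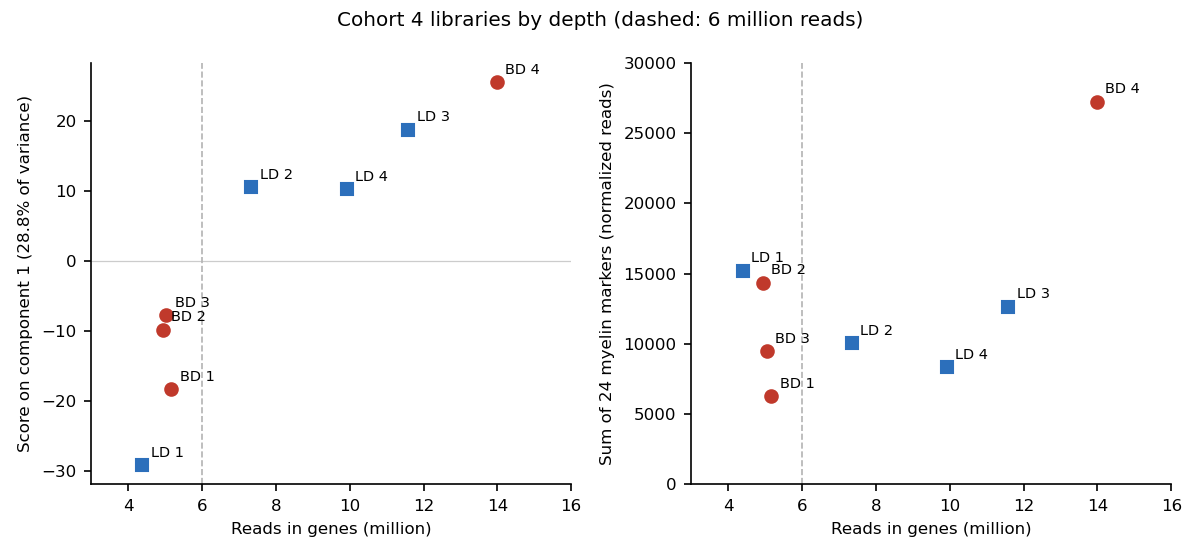
Score on the first principal component (left) and summed normalized reads of 24 myelin markers (right) against the reads in genes of each of the 8 libraries, circles for BD and squares for LD, with 1 point per animal. The 4 libraries under 6 M reads lie at −29.1 to −7.7 on the component and the 4 deeper ones at 10.2 to 25.5, and the myelin sum of BD replicate 4 (27246) is above all others.

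KBTBD12, of the BTB and kelch domain family that includes adaptors of ubiquitin ligases, had the smallest p among genes with a higher BD mean. It stood at 80.9, 127, 82.6 and 111 normalized reads in BD replicates 1 to 4 and at 78.6, 37.8, 34.8 and 35.8 in LD replicates 1 to 4. All BD values lay above all LD values, but LD replicate 1 came within a few reads of the BD animals. The difference was 1.15 ± 0.27, a 2.22-fold higher level, and the HD animal stood at 102. KIF15, a kinesin of the mitotic spindle, stood at 47.5, 51.7, 37.7 and 99.6 in BD against 31.0, 22.0, 26.3 and 31.2 in LD. The groups did not overlap, with the deepest library, BD replicate 4, at the top (0.99 ± 0.29). FSD1L stood at 49.3, 64.6, 59.2 and 78.0 in BD against 37.2, 39.1, 44.1 and 37.6 in LD, again with no overlap (0.64 ± 0.20).

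MMP21, a secreted matrix metalloproteinase, stood at 19.4, 40.6, 21.5 and 17 in BD and at 10.3, 9.77, 6.96 and 9.17 in LD (1.28 ± 0.35). MYOZ3, a protein of the muscle Z-disc, stood at 24.6, 24, 18 and 16.4 against 8.27, 11.0, 10.8 and 9.17 (1.0 ± 0.31). Neither gene's groups overlapped, and the values rest on 5 to 26 and 4 to 25 whole reads per library. LRIT3, a leucine-rich repeat protein of retinal bipolar cells, stood at 31.7, 22.2, 30.5 and 24.3 against 12.4, 13.4, 17.8 and 14.7 (0.85 ± 0.28). Its values rest on 6 to 37 whole reads. PDE6B, a subunit of the rod photoreceptor phosphodiesterase, stood at 93.3, 113, 113 and 68.8 against 89.0, 35.4, 37.9 and 56.8 (0.88 ± 0.29). Here LD replicate 1 lay among the BD animals and the groups overlapped.

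ISG15, a ubiquitin-like protein induced by interferon, stood at 15.8, 27.7, 14.4 and 12.5 in BD against 4.14, 9.77, 6.19 and 7.34 in LD (1.23 ± 0.40, from 2 to 19 whole reads). P2RX7, the ATP-gated channel that is prominent on microglia, stood at 422, 327, 411 and 382 against 176, 326, 244 and 329 (0.56 ± 0.19). ISG15 did not overlap, while for P2RX7 BD replicate 2 lay just under LD replicate 4. P2RX6, another ATP-gated channel subunit, was close to constant in BD at 123, 120, 115 and 117, with LD at 45.5, 96.4, 113 and 89.9 (0.53 ± 0.24). LD replicate 1 was by far the lowest of its 8 values. ITGA4, an integrin chain of leukocytes, was at 456, 508, 345 and 423 against 294, 284, 347 and 345 (0.44 ± 0.13), overlapping at BD replicate 3.

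SMPDL3A, a phosphodiesterase related to acid sphingomyelinase, stood at 134, 113, 124 and 98.3 in BD against 80.7, 72.0, 84.3 and 86.2 in LD, without overlap (0.52 ± 0.16). NSUN5, a methyltransferase of ribosomal RNA, stood at 172, 177, 221 and 169 against 141, 127, 152 and 120, also without overlap (0.45 ± 0.14). HEMK1, a protein methyltransferase, and SLC5A8, a sodium-coupled carrier of lactate and short fatty acids, overlapped between groups at 0.50 ± 0.16 and 0.65 ± 0.22. SNURF, an imprinted gene that shares its transcript with SNRPN so that reads cannot be assigned with certainty, stood at 746, 953, 865 and 668 against 681, 519, 497 and 597 (0.49 ± 0.13) and overlapped through LD replicate 1. Among genes with a mean of 50 or more and no overlap, BST1, an ectoenzyme that cyclizes NAD, stood at 0.50 ± 0.19, and SPR, which completes the synthesis of tetrahydrobiopterin, at 0.46 ± 0.18. CAPN3, a calpain protease of muscle, TMEM26, ZNF774 and NIPSNAP3B also did not overlap, at 0.46 ± 0.20 to 0.50 ± 0.19.

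HIST1H1D, the linker histone H1.3, had the smallest p of all tested genes. It stood at 7.04, 1.85, 3.59 and 4.59 normalized reads in BD replicates 1 to 4 and at 14.5, 19.5, 18.6 and 18.3 in LD. All BD values lay well below all LD values, a 3.78-fold higher level in LD (−1.92 ± 0.42), and the HD animal stood with LD at 19.8. The values rest on 1 to 24 whole reads per library, and the copies of histone genes are so alike that reads may be split between them. TSPAN1, a tetraspanin, stood at 3.52, 0, 3.59 and 7.87 against 10.3, 14.6, 15.5 and 16.5 (−2.03 ± 0.62), with 0 to 20 whole reads and no overlap.

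TM4SF1, a membrane protein of vessel endothelium, stood at 21.1, 27.7, 32.3 and 20.3 in BD against 41.4, 47.6, 47.2 and 58.7 in LD (−0.93 ± 0.24). TBXAS1, the thromboxane synthase, stood at 3.52, 3.69, 8.98 and 5.24 against 20.7, 12.2, 15.5 and 18.3 (−1.53 ± 0.41). Neither gene's groups overlapped, and TBXAS1 rests on 2 to 20 whole reads. RLBP1, a retinaldehyde carrier of glial cells, stood at 47.5, 44.3, 32.3 and 59.7 against 86.9, 63.5, 73.5 and 77.9 (−0.73 ± 0.22). The HD animal, at 31.1, lay below all 8 of these.

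ACAD8, the isobutyryl-CoA dehydrogenase of valine breakdown, stood at 162, 190, 158 and 165 in BD against 215, 210, 245 and 236 in LD (−0.42 ± 0.12). GALK1, the galactokinase, stood at 35.2, 46.2, 43.1 and 36.1 against 55.9, 72.0, 71.9 and 55.9 (−0.66 ± 0.20). The groups were apart in both genes, and in GALK1 the HD animal stood at 67.1, within the LD range. P4HA2, which hydroxylates collagen chains, stood at 148, 222, 176 and 184 against 242, 273, 253 and 228, also without overlap (−0.46 ± 0.14). PAPSS2, which makes the sulfate donor for proteoglycans, stood at 473, 373, 422 and 424 against 472, 510, 571 and 629 (−0.36 ± 0.12) and overlapped only through replicate 1 of each group.

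WDR76 (−0.74 ± 0.22), MREG (−0.61 ± 0.19), FAM109B (−1.01 ± 0.33), TTC23L (−0.49 ± 0.16) and SMIM10 (−1.03 ± 0.34) did not overlap, while CEP57L1 did (−0.51 ± 0.16). Of these, FAM109B rests on 5 to 27 whole reads per library and SMIM10 on 4 to 30. At a mean of 50 or more, FANCE of the Fanconi anaemia DNA repair complex was at −0.50 ± 0.17, RNF43, a ubiquitin ligase that removes Wnt receptors, at −0.51 ± 0.22, and the receptor tyrosine kinase gene LTK at −0.50 ± 0.19. SYNDIG1L and TSPAN18 were at −0.56 ± 0.21 and −0.51 ± 0.19, likewise with no overlap. IFIT1B, of the interferon-induced tetratricopeptide family, had the largest difference of all named genes, with values of 114, 9.23, 115 and 1.97 in BD and 153, 278, 126 and 127 in LD (−2.69 ± 0.95). Only BD replicates 2 and 4 were far below the other animals, and in cohorts 7a and 7b LD animals ran from 0 to 235.

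**Figure D2:**
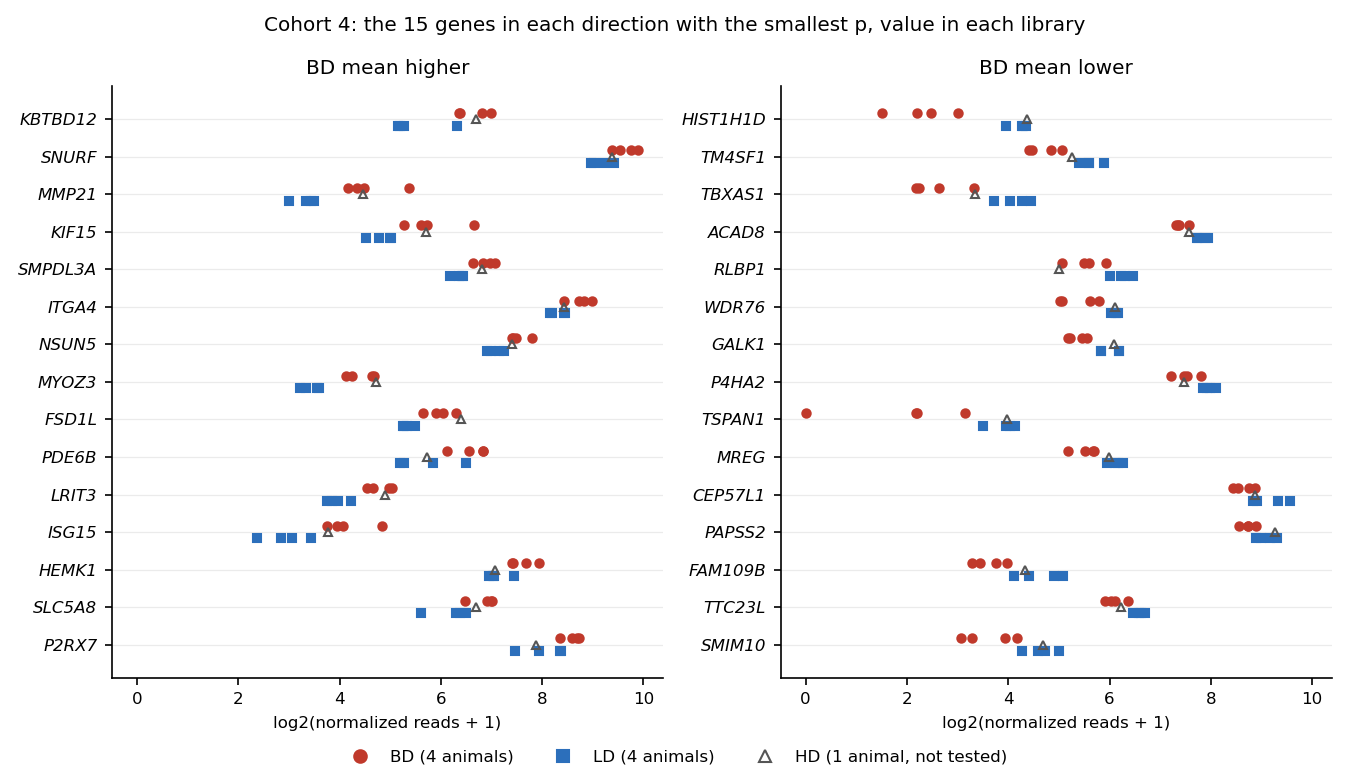
Log2(normalized reads + 1) in each library of cohort 4 for the 15 genes with the smallest p and a higher BD mean (left) and the 15 with a lower BD mean (right), with filled circles for BD, squares for LD and an open triangle for the HD animal. Groups do not overlap in 9 of the 15 genes on the left and 13 of the 15 on the right, and KBTBD12 shows 1 LD library (6.31) apart from the other 3 (5.16 to 5.28). The genes were chosen by p in the same libraries, which favours separation, and 1.58% of all genes tested do not overlap.

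The HD animal was set beside both groups. Of the 15 genes with a higher BD mean its value was nearer the BD mean in 10, and of the 15 with a lower BD mean in 6. Over the 200 genes whose groups did not overlap it was nearer the BD mean in 101 (50.5%), against 44.4% of all genes tested. FSD1L (83.3) and MYOZ3 (25.4) were above all 8 tested animals in it, and PDE6B (52.2) and HIST1H1D (19.8) were on the LD side.

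Animals of cohorts 7a and 7b, which share none with cohort 4, gave a second reading of the same difference from 2 BD and 6 LD animals with cohort in the model. Limma called 0 genes (0%) and listed 425 at an unadjusted p under 0.05 (3.35%), with 1.43% of genes higher in BD and 1.92% lower. Of the 30 genes with the smallest p in cohort 4, 18 had the same sign there (60.0%, against 55.4% of all genes tested). They were 6 of the 15 higher and 12 of the 15 lower. For 2 of the 30, against 254 of all 12693 genes, this came with an unadjusted p under 0.05 in limma. FSD1L was 1 of the 2, at 98.2 and 54.9 in the BD animals against 40.6 to 69.3 in LD (0.61 ± 0.27). GALK1 was the other, at 17.8 and 48.9 against 40.7 to 93.5 (−0.97 ± 0.35). GALK1 had been selected from all BD and LD animals of the series, these included, so its second reading is not independent.

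KBTBD12 had the opposite sign (−0.10 ± 0.34), with BD at 46.1 and 89.9 inside the LD range of 41.9 to 112. KIF15 kept its sign (0.53 ± 0.35). HIST1H1D and TM4SF1, though counted as sharing their sign, were close to 0 (−0.06 ± 0.36 and 0.00 ± 0.28). MMP21 had the opposite sign, at 1.49 and 20.0 in BD against 13.8 to 37.4 in LD (−1.47 ± 0.61), and the difference between the cohorts was 2.75 ± 0.74. MYOZ3, ISG15 and P2RX7 also turned, to −0.37 ± 0.34, −0.71 ± 0.49 and −0.27 ± 0.19. So did NSUN5 (−0.11 ± 0.18), HEMK1 (−0.12 ± 0.30), SLC5A8 (−0.16 ± 0.41) and PDE6B (−0.05 ± 0.31), and on the lower side TBXAS1 (0.08 ± 0.43), MREG (0.19 ± 0.30) and FAM109B (0.06 ± 0.33). All values from NSUN5 to FAM109B lay within 1 standard error of 0, so their signs are uncertain. The test of that difference between cohorts called 0 genes (0%) and listed 208 at an unadjusted p under 0.05 (1.64%), of which 127 (1%) had the more positive difference in cohort 4 and 81 (0.638%) the more negative.

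Over all 12693 genes the signs matched in 7038 (55.4%), in 124 of the 200 genes without overlap (62.0%) and in 152 of the 229 listed by their unadjusted p (66.4%). The correlation of the differences across genes was r = 0.142, and 0.231 over the 9377 genes with a mean of 100 or more. Genes are not independent replicates, and each difference comes from the same few animals.

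**Figure D3:**
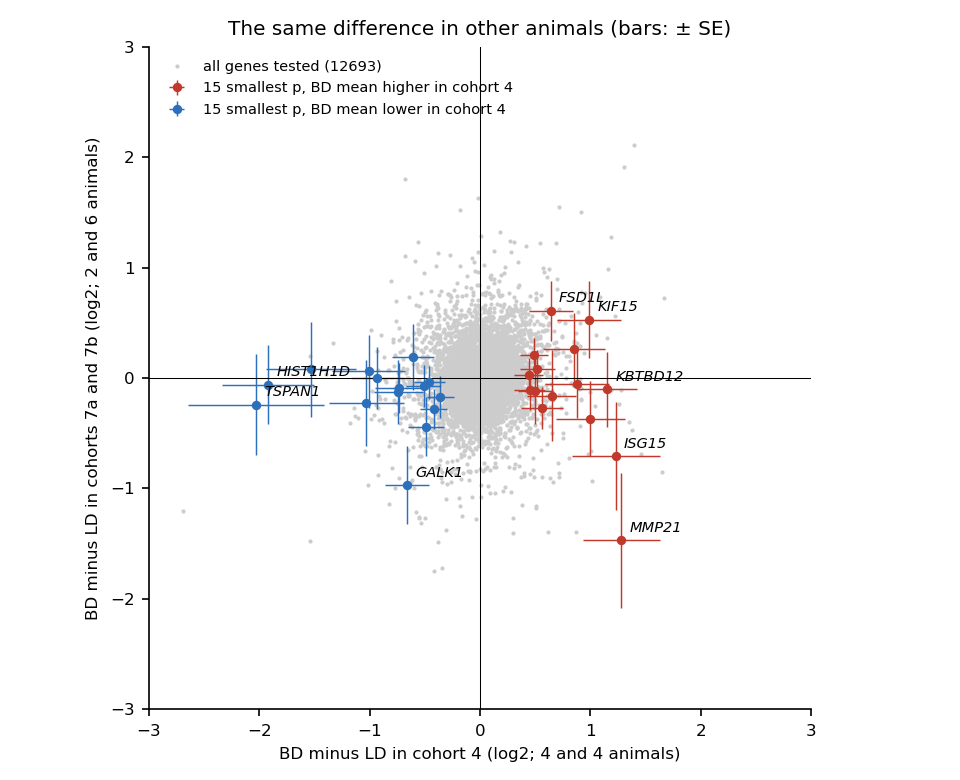
BD minus LD difference of every tested gene (grey) in cohort 4 (horizontal axis, log2) and in cohorts 7a and 7b (vertical axis, log2), with the 15 genes of smallest p in each direction in red and blue and bars of ± 1 standard error. Of the blue genes 12 of 15 and of the red genes 6 of 15 share their sign, and MMP21 lies furthest into the quadrant of opposite sign.

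Genes of alcohol or stress biology, and 6 from an earlier comparison of all cohorts, were followed whatever their value: 19 of 20 were tested, 14 with a BD mean above and 5 below LD, and GPR1 was too low to test (3.59 to 17.4 normalized reads). None was called, and the 95% interval lay inside 2-fold for 17. The groups did not overlap in 1 (GALK1), against 1.58% of all genes tested. In limma 4 had an unadjusted p under 0.05 (GALK1, HMGN1, SSTR4 and MBP), against 1.8% of all genes tested. HMGN1, a nucleosome-binding protein, stood at 236, 229, 215 and 150 in BD against 188, 148, 138 and 124 in LD (0.47 ± 0.18). SSTR4, a somatostatin receptor, stood at 24.6, 49.9, 43.1 and 19 against 20.7, 17.1, 14.7 and 13.8 (0.92 ± 0.34). In both genes BD replicate 4 lay in the LD range and LD replicate 1 was the highest LD animal. With the depth sets in the model they stood at 0.20 ± 0.13 and 0.57 ± 0.35. TMEM18 and TARBP2, a partner of Dicer, were at 0.31 ± 0.15 and −0.40 ± 0.20. HMGN1, SSTR4, TMEM18, TARBP2, GPR1 and GALK1 were selected from BD and LD animals of all cohorts, cohort 4 included, so these values are not independent support.

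Stress and peptide genes were near 0. NR3C1, the glucocorticoid receptor, differed by 0.00 ± 0.12 and its chaperone regulator FKBP5 by 0.07 ± 0.16. The peptides CRH, NPY, SST and PDYN stood at 0.09 ± 0.20, 0.15 ± 0.28, 0.07 ± 0.22 and −0.07 ± 0.21. The last 3 each had an LD animal, replicate 1, above every BD animal (176, 621 and 602 normalized reads). The 95% interval of NPY ran from −0.46 to 0.77, and with the depth sets SST stood at −0.27 ± 0.16. In cohorts 7a and 7b SST stood at 0.60 ± 0.21, with BD at 448 to 488 and LD at 226 to 400. CRH, NPY and PDYN stood there at −0.05 ± 0.26, 0.29 ± 0.26 and 0.01 ± 0.16. The growth factor gene BDNF was at 0.27 ± 0.20. The NMDA receptor subunit GRIN2B, the GABA-A subunit GABRA2 and the calcium-activated channel KCNMA1 were at 0.09 ± 0.09, −0.03 ± 0.08 and 0.04 ± 0.09, with 95% intervals of −0.11 to 0.28, −0.21 to 0.15 and −0.15 to 0.23. The autoreceptor GRM2 was at 0.08 ± 0.17, and ALDH2, which clears acetaldehyde, at 0.17 ± 0.12. The sign of NR3C1, FKBP5, NPY, SST, PDYN, GRIN2B, GABRA2, KCNMA1 and GRM2 turned under at least 1 alternative processing.

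Lists of cell type markers and pathways were read as counts and medians, beside the median over all genes tested of 0.004 and its 51.2% of genes above 0. The 709 distinct list genes tested held 0 calls, 10 without overlap (1.41%, against 1.58% of all genes) and 16 at an unadjusted p under 0.05 (2.26%, against 1.8%). Of 33 lists with 5 or more tested genes 26 had a median above 0, and the medians ran from −0.071 for interferon response genes to 0.219 for the 7 choroid plexus and ependymal markers. Leaving out LD replicate 3 brought the 26 to 17, and the depth sets brought it to 19. With the depth sets neither of these lists stood at an end, the interferon median being 0.032 and the choroid plexus median 0.054, against 0.008 over all genes. Without the depth sets the 26 include GABA and glycine receptors (0.001), antioxidant genes (0.001) and glucocorticoid targets (0.002), all below the 0.004 over all genes. Some lists share genes, so their medians are not independent.

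The tissue carried the markers of cortex. Excitatory neuron markers summed to 31906 to 41621 normalized reads in BD and 37083 to 40321 in LD, and astrocyte markers to 153037 to 178200 and 161295 to 174200. The 11 blood cell markers in the table summed to 10.8 to 27.7 in BD and 20.8 to 33.9 in LD, and none passed the filter. TTR, which defines choroid plexus, also failed it. Excitatory markers had a median of 0.022 (11 of 17 above 0), inhibitory markers −0.041 (6 of 22 above 0, with the GABA-synthesizing enzyme gene GAD2 at −0.13 ± 0.09) and astrocyte markers −0.013 (10 of 21). GFAP, their filament protein, stood at 9527, 17007, 15749 and 18519 in BD against 23852, 16770, 16603 and 13878 in LD (−0.24 ± 0.20).

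Myelinating oligodendrocyte markers had 20 of 24 members above 0 and a median of 0.066. Their summed level was 6268, 14346, 9467 and 27246 in BD replicates 1 to 4 and 15203, 10035, 12643 and 8329 in LD. The BD animals thus held both the lowest and the highest level, and the median turned with single animals. It was −0.251 without BD replicate 4, −0.037 without BD replicate 2 and −0.085 without LD replicate 4, but 0.371 without BD replicate 1 and 0.268 without LD replicate 1. It was also higher in edgeR (0.270) and DESeq2 (0.223), with the depth sets (0.213) and with log2 depth as covariate (0.201). MBP, a structural protein of myelin, stood at 820, 1119, 1031 and 1606 against 1158, 659, 820 and 653 (0.47 ± 0.21). OLIG1, a transcription factor of the lineage, stood at 0.72 ± 0.40. Precursor markers had a median of 0.027 (9 of 14 above 0).

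Microglia and macrophage markers were split, 12 of 23 above 0 with a median of 0.010. AIF1, the calcium-binding protein IBA1, stood at 66.9, 53.6, 48.5 and 36.1 in BD against 37.2, 22.0, 28.6 and 43.1 in LD (0.64 ± 0.27). CD14, a co-receptor for endotoxin, stood at 29.9, 25.9, 35.9 and 49.2 against 49.6, 47.6, 42.5 and 61.4 (−0.53 ± 0.24). These 2 markers of the same cells thus lay on opposite sides of 0. Endothelial markers had a median of 0.020 and were split as well, 9 of 16 above 0. VWF, the von Willebrand factor (−0.17 ± 0.11), and CD93 (−0.32 ± 0.29) lay below 0, and CLDN5, a tight junction protein, above it (0.23 ± 0.18). The VEGF receptor gene FLT1 stood at 424, 471, 377 and 383 against 364, 371, 340 and 333 (0.23 ± 0.11), without overlap.

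Pericyte and smooth muscle markers had a median of 0.094 and 10 of 15 above 0. They summed to 7014 in BD replicate 3 and to 3193 to 3701 in the other 7 libraries, with the muscle filament gene DES at 187 there and 21.0 to 37.9 elsewhere. Without BD replicate 3 the median was −0.074, and without BD replicate 2 it was 0.345. It was 0.326 in edgeR, 0.323 in DESeq2 and 0.229 with array weights, but 0.022 at a minimum of 100 normalized reads, 0.055 with log2 depth and 0.004 with the depth sets.

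The medians of synaptic and channel lists lay within 0.058 of 0, and several turned with the depth sets: presynaptic genes to −0.065, postsynaptic scaffolds to −0.108, ionotropic glutamate receptor subunits to −0.071 and neuropeptide receptors to −0.112. Metabotropic receptors (−0.013), monoamine and related receptors (−0.049) and calcium, sodium and HCN channels (−0.034) turned too. Ionotropic glutamate receptor subunits had a median of 0.029 (7 of 14 above 0), metabotropic receptors 0.009 (4 of 7) and GABA and glycine receptors 0.001 (8 of 15). GRM3, a receptor shared by glia and neurons, stood at 1344, 1411, 1481 and 1524 in BD against 1338, 1267, 1209 and 1328 in LD, without overlap (0.16 ± 0.08). Presynaptic genes had a median of 0.058 (17 of 27 above 0). SYP, a protein of synaptic vesicles, stood at 7996, 7481, 7619 and 7388 against 7273, 6936, 6899 and 7375 (0.10 ± 0.07), with BD replicate 4 and LD replicate 4 almost equal. SV2C, another vesicle protein, stood at 143, 137, 129 and 121 against 128, 195, 222 and 246 (−0.54 ± 0.19), with only LD replicate 1 among the BD animals.

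Postsynaptic scaffolds had a median of 0.021 (15 of 21 above 0), and DLG3 among them did not overlap (0.12 ± 0.08). Potassium channels had a median of 0.022 (17 of 29), and calcium, sodium and HCN channels one of 0.005 (12 of 20). Neuropeptides had a median of 0.032 (10 of 18), where ADCYAP1, which encodes PACAP, stood at 329, 321, 355 and 338 against 319, 255, 292 and 267 (0.25 ± 0.11). The ADCYAP1 groups did not overlap, and with the depth sets the difference was 0.19 ± 0.11. PTHLH, which encodes a relative of parathyroid hormone, was at 0.48 ± 0.29 here and at −0.72 ± 0.28 in cohorts 7a and 7b. Neuropeptide receptors had a median of 0.027 (12 of 22) and the monoamine, acetylcholine, cannabinoid and adenosine receptors one of 0.047 (22 of 33). Immediate early genes, which activity induces, had a median of −0.011 (11 of 24). Their median was −0.155 with the depth sets and 0.186 in cohorts 7a and 7b, against 0.008 and −0.003 over all genes.

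Interferon response genes had a median of −0.071 with 10 of 26 above 0, while ISG15 of the same list was at 1.23. IRF7, a transcription factor of the pathway, stood at 12.3, 12.9, 12.6 and 8.52 against 24.8, 13.4, 14.7 and 21.1, without overlap (−0.61 ± 0.33). Its values rest on 7 to 23 whole reads. OAS3, a sensor of double-stranded RNA, was at −0.36 ± 0.18. Inflammation genes had a median of 0.018 (13 of 24 above 0), with the cyclooxygenase gene PTGS2 at 278, 233, 241 and 302 against 211, 145, 241 and 208 (0.40 ± 0.16) and the lymphotoxin receptor gene LTBR at 0.52 ± 0.22.

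Ethanol and acetaldehyde enzymes had a median of 0.053 (8 of 12 above 0), alcohol-linked genes 0.039 (21 of 35) and glucocorticoid targets 0.002 (10 of 19). Antioxidant genes had a median of 0.001 (12 of 24), and GPX8, a peroxidase of the endoplasmic reticulum, stood at 10.6, 9.23, 7.18 and 15.7 against 16.5, 19.5, 17.8 and 22.9 (−0.83 ± 0.34), without overlap. GPX8 rests on 4 to 25 whole reads. Oxidative phosphorylation genes had a median of 0.033 (24 of 42) and cytosolic ribosomal proteins 0.016 (30 of 52). Among the latter RPS25 (0.23 ± 0.10) and RPL31 (−0.93 ± 0.40) did not overlap. RPL31 stood at 19.4 to 22.9 in BD and at 29.3, 27.1 and 29.3 in LD replicates 2 to 4 but 108 in replicate 1, and ribosomal protein genes have many near-identical pseudogenes.

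In cohorts 7a and 7b the list genes without overlap stood on both sides. ADCYAP1 (0.49 ± 0.22), FLT1 (0.38 ± 0.15), RPS25 (0.31 ± 0.21), DLG3 (0.08 ± 0.09), IRF7 (−0.62 ± 0.57) and RPL31 (−0.70 ± 0.27) had the sign they had in cohort 4. GRM3 (−0.05 ± 0.13), SYP (−0.07 ± 0.08), ISG15 (−0.71 ± 0.49) and GPX8 (0.07 ± 0.51) had the opposite one.

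Medians of the remaining lists were −0.027 for heat shock proteins (15 of 32 above 0), −0.014 for chromatin regulators (13 of 35), −0.032 for fibroblast and meningeal markers (6 of 16), 0.017 for myelin lipid and cholesterol synthesis (16 of 25) and 0.031 for circadian genes (10 of 18). With the depth sets these medians were, in the same order, 0.044, −0.097, 0.043, −0.05 and −0.063. All but that of chromatin regulators thus turned.

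**Figure D4:**
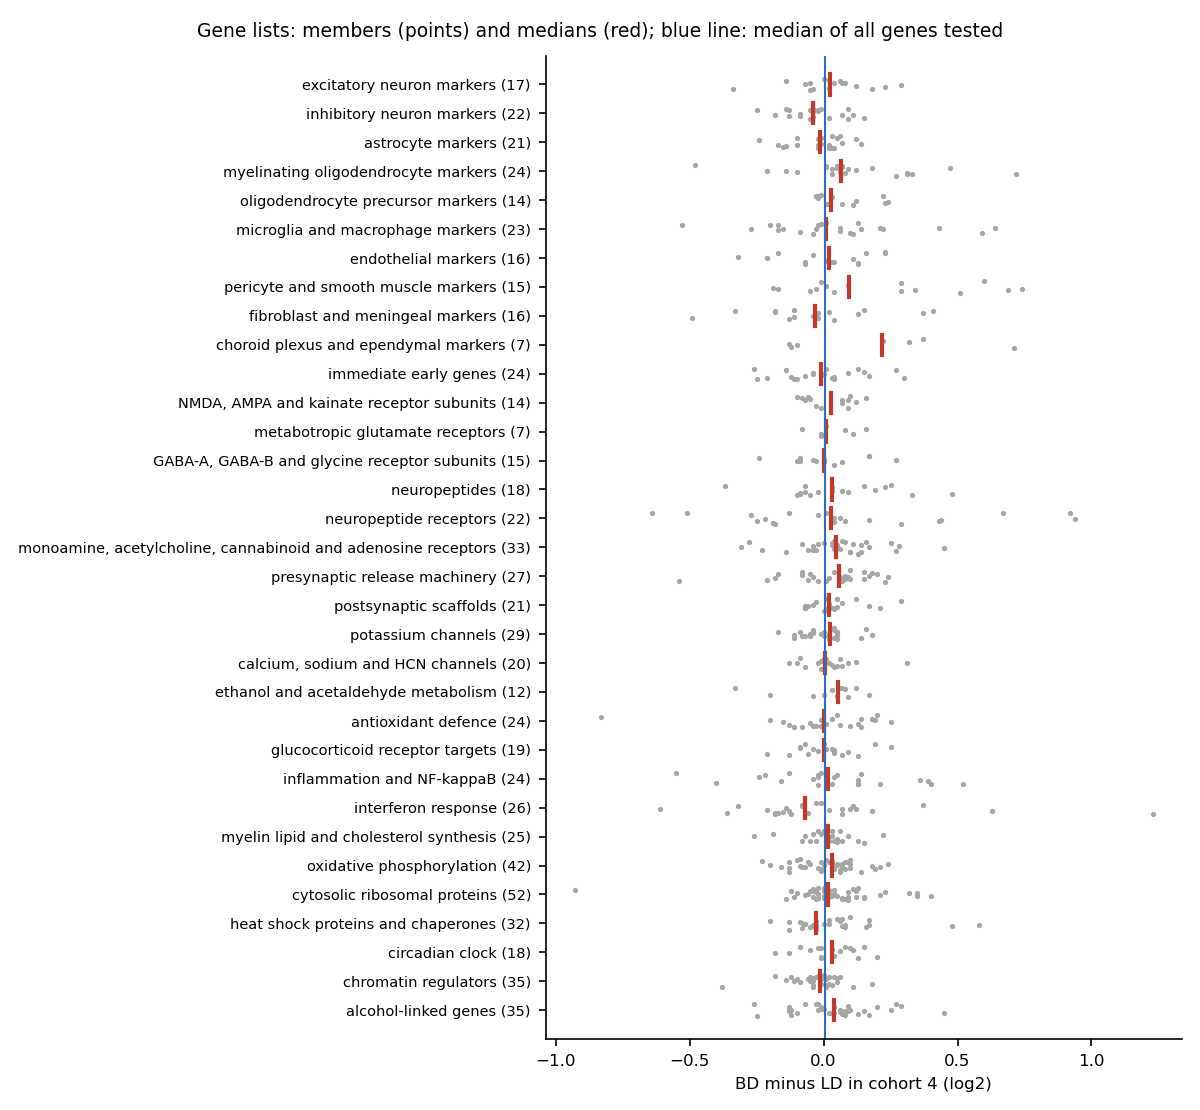
BD minus LD difference in cohort 4 (log2) of each tested member (grey points) and the median (red bar) of 33 gene lists, with the number of tested members in brackets and the median of all genes tested (0.004) as a blue line. Medians run from −0.071 to 0.219, and most points lie within 0.5 of 0.

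Exons were tested as their share of the reads of their gene, which a change of the whole gene leaves alone. Of 96552 exons limma called 1 (0.00104%) at an adjusted p under 0.05, and 3895 had an unadjusted p under 0.05 (4.03%). The called exon lies in PPP2R1A, the scaffold subunit of protein phosphatase 2A, at chromosome 19, 46927755 to 46927987, a length of 233 bases. The coordinates are those of the deposited exon names, whose build is not given. The exon took 6.39%, 7.41%, 6.74% and 6.18% of the reads of the gene in BD replicates 1 to 4 and 11.0%, 10.6%, 11.4% and 11.3% in LD. All BD animals were well below all LD animals, and the spread within each group was small (6.68 ± 0.537% and 11.1 ± 0.357%, mean ± SD). The log2 share fell by 0.73 ± 0.07 (limma, adjusted p = 0.00956), from 147 to 390 exon reads in BD libraries and 242 to 552 in LD libraries.

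The gene as a whole did not differ beyond its error (−0.08 ± 0.08), and none of its other 14 tested exons passed (smallest adjusted p = 0.997). Among these the exon at 46942826 to 46942917 had a larger but less certain share difference of opposite sign (0.81 ± 0.31, limma unadjusted p = 0.0193). The call of the exon at 46927755 to 46927987 was lost without BD replicate 1 (−0.71, adjusted p = 0.0823) and without LD replicate 2 (−0.75, adjusted p = 0.059), at nearly the same size. In other animals BD and LD shares overlapped. The HD animal of cohort 4 was at 11.9%, the BD animals of cohorts 7a, 7b and 5 at 5.22%, 11.6% and 11.1%, and the LD animals of cohorts 7a and 7b at 7.02% to 11.0%. In cohorts 7a and 7b the difference was −0.21 ± 0.25 (limma, adjusted p = 0.922), and the difference between cohorts was −0.52 ± 0.27 (adjusted p = 1.0). Over all 30 animals the share ran from 5.22% to 11.9%. Of the 4 very heavy drinkers of cohort 5, 3 were at 5.99% to 7.17% and the other at 11.2%. Those of cohort 7a were at 8.02% and 10.0%, and HD animals of cohorts 5, 7a and 7b at 8.05% to 10.7%. Low values also came from LD animals of cohorts 7a (7.02%) and 7b (7.39%).

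**Figure D5:**
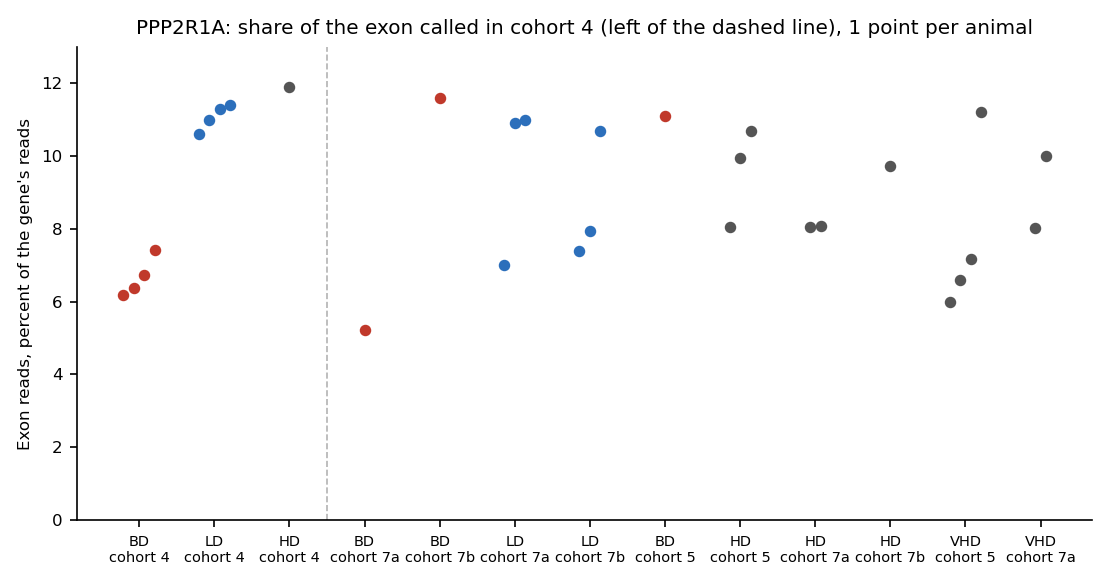
Share of the called PPP2R1A exon in the reads of its gene (percent), 1 point per animal, by drinking category and cohort, with BD in red, LD in blue and heavier drinkers in grey. In cohort 4 BD (6.18% to 7.41%) and LD (10.6% to 11.4%) are apart, while BD animals of other cohorts lie at both ends (5.22% to 11.6%).

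The next 4 exons did not pass with all 8 libraries. Without LD replicate 1, when 10 exons were called, those of EPB41L1 (limma, adjusted p = 0.0249) and MATR3 (adjusted p = 0.0292) did. Leaving out other single libraries gave 0 to 8 calls, and the Simes method of diffSplice, which tests whole genes, called 118 of 9731 genes. An exon of CNTN1, a neuronal adhesion molecule, took 2.96%, 3.51%, 3.52% and 3.34% in BD against 5.55%, 5.29%, 5.14% and 4.63% in LD (−0.63 ± 0.08, limma adjusted p = 0.103). An exon of EPB41L1, which anchors receptors to the cytoskeleton, took 2.11%, 1.91%, 2.20% and 2.35% against 1.31%, 0.968%, 0.965% and 1.16% (0.96 ± 0.13, adjusted p = 0.103). An exon of GFPT1, the entry enzyme of hexosamine synthesis, took 2.47%, 2.43%, 2.25% and 2.19% against 5.78%, 4.77%, 4.39% and 4.56% (−1.04 ± 0.14, adjusted p = 0.103). An exon of MATR3, a nuclear matrix protein that binds RNA, took 2.82%, 1.98%, 2.40% and 2.66% against 1.56%, 1.26%, 1.21% and 1.13% (0.93 ± 0.13, adjusted p = 0.163). The groups did not overlap in any of them. These exons were chosen by smallest p in the same 8 libraries, so the separation is no added support.

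In cohorts 7a and 7b, where limma called 0 exons (0%) and 5634 had an unadjusted p under 0.05 (5.84%), the CNTN1 exon stood at 0.02 ± 0.20, that of EPB41L1 at 0.02 ± 0.29 and that of MATR3 at 0.47 ± 0.19. GFPT1 had the opposite sign, with 5.28% to 5.57% in BD and 1.74% to 4.78% in LD (0.90 ± 0.27). Its difference between cohorts was −1.93 ± 0.31, with an adjusted p of 0.267 by limma. That comparison of cohorts called 0 exons (0%) and had 3999 at an unadjusted p under 0.05 (4.14%).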

How the data were processed

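RNA-seq of dissected area 32 was deposited as 1 gene table and 1 exon table over all libraries. Per the submitters' processing notes the tools were CASAVA, FastQC, STAR 2.3.0e and edgeR (build, annotation and read counter not given in the sources used here). The values the authors deposited are upper-quartile normalized signal, called normalized reads here. In each cohort 4 library 100% of gene values were whole multiples of 1 read (within 0.01), which gave the depths and the whole reads for edgeR and DESeq2. Of 15521 gene names 14438 matched a current or older symbol.

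Members, gene lists and tests were chosen with earlier results of these data known. Genes reaching 10 normalized reads in 4 or more of the 8 libraries were tested on log2(value + 1), which understates changes of low genes, with limma 3.58.1 (eBayes with a mean trend, no covariate, Benjamini-Hochberg adjusted p over all genes, R 4.3.3). EdgeR 4.0.16 and DESeq2 1.42.0 were alternatives. Named were the 15 genes of smallest p in each direction, the 10 largest non-overlapping differences in each direction at a mean of 50 or more, 20 followed genes, list members of smallest p and 5 exons. Exon shares were exon over the gene's sum in the exon table, since the tables were scaled separately. Cohorts 7a and 7b were fitted with cohort as a term; the exon fits there and the terms for depth sets (under or over 6 M reads) were added after seeing the data. Replicate numbers only name samples, so p-values measure the spread between animals. The scripts were tested on simulated data.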

Additional observations from a re-analysis of the deposited data

Results flagged for a closer look

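A single library stood apart from the other 3 of its group in 17 of 264 sets of 4 values (6.44%). The nominal rate is about 1 in 20, but many of the genes were chosen by p or lack of overlap in these same libraries. That rate need not hold for such sets, which also come from the same animals. LD replicate 1, the shallowest library, stood apart most often, on the log2 scale at 6.31 for KBTBD12, 7.36 for HCN4, 8.34 for OAS3, 6.76 for RPL31 and 8.57 for RPS25, all above the other LD animals, and at 10.46 for NR3C1, below them. BD replicate 4 held 13.99 M (mega) reads, above the other BD libraries. It also stood apart at 9.17 for ALDH9A1, above the other BD animals, and below them at 8.32 for GRM2, 3.25 for IRF7 and 4.77 for BAG3. BD replicate 1 was above its group at 5.75 for CRH and 8.90 for RPS25, and BD replicate 2 at 6.43 for ZNF774. LD replicate 3 was above its group at 6.44 for SYNDIG1L and below it at 8.36 for GRM2, and LD replicate 4 was above it at 6.45 for LTK.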

How the results depend on the processing

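The number of genes passing the limma threshold was 0 under every alternative run. Counts at an unadjusted p under 0.05 were less stable: 116 genes at a minimum of 100 normalized reads, 1184 with array weights, 418 with log2 depth as covariate, 1117 with the depth sets and 180 to 660 with 1 library left out (660 without BD replicate 4, 614 without LD replicate 1), against 229. At the minimum of 100 the non-overlapping genes were 121, and the genes at an unadjusted p under 0.05 in cohorts 7a and 7b were 262. Lists with a median above 0 numbered 17 to 26 with 1 library left out (17 without LD replicate 3) and 19 with the depth sets. Called exons numbered 0 to 10 with 1 library left out (0 without BD replicate 1 or LD replicate 2, 2 without BD replicate 4, 3 without LD replicate 3 or LD replicate 4, 8 without BD replicate 3, 10 without LD replicate 1), and exons at an unadjusted p under 0.05 numbered 3351 to 6764 (6764 without BD replicate 4) and 1293 at a minimum of 50. The Simes method of diffSplice, which tests genes and shares 1 variance over a gene's exons, called 118 of 9731 genes. Without LD replicate 1 the exons of EPB41L1 (adjusted p = 0.0249) and MATR3 (adjusted p = 0.0292) passed in limma.

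Of 2470 alternative values of 126 named genes 2445 kept their direction. The values that turned were PDYN 0.05 and NR3C1 −0.11 with array weights; SST −0.06 and GRM2 −0.01 with log2 depth; and NR3C1 −0.01 in both edgeR and DESeq2. With the depth sets they were NPY −0.07, SST −0.27, GABRA2 0.02, GRIN2B −0.01, GRM2 −0.12, KCNMA1 −0.01, GABRG1 0.03, HCN4 −0.04, ALDH9A1 0.02 and NPAS2 −0.06. With a library left out they were SST −0.05 (BD replicate 1) and −0.09 (LD replicate 3), NR3C1 −0.05 (BD replicate 4) and −0.12 (LD replicate 1), FKBP5 −0.02 (BD replicate 4), PDYN 0.13 (LD replicate 1), KCNMA1 −0.02 (LD replicate 2), GRM2 −0.04 (LD replicate 3) and NPY −0.08 (LD replicate 4). Their values at the other end of that range were NPY 0.42, SST 0.31, PDYN −0.30, FKBP5 0.18, GRM2 0.24 and KCNMA1 0.09. The cause was not tested. Genes under about 50 normalized reads rest on few reads, so their estimates are the least certain.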
